A study of Sus scrofa with 9 samples.

Results

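Of 5 listed genes linked to nephron development and repair, 3 had a probe set named for them alone: PROM1 (probe set 15322408, annotated by symbol without a gene ID), SOX9 (probe set 15210755, NCBI Gene ID 396840) and SOX4 (probe set 15307820, NCBI Gene ID 100512542). They are 3 of 12362 genes with a named probe set, out of 19124 probe sets in all. PAX2 and PAX8 had no named probe set and were not analysed here. A gene with several probe sets would have been read from the one selected on the highest mean log2 value over all 9 arrays, but each of the 3 had a single probe set, so that value decided nothing. The genes themselves were chosen with earlier results of these data known, so the tests below describe these arrays and are not independent evidence.

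PROM1 encodes prominin-1 (CD133), a membrane protein found on protrusions of epithelial cells and used as a surface marker of scattered tubular cells and parietal epithelial cells in the kidney. SOX9 is a transcription factor with an HMG box that is low in most resting tubule cells and is switched on in injured tubule cells that go on to divide and restore the epithelium. SOX4 belongs to the SoxC group of the same family and acts in epithelial plasticity and nephron development.

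All biopsies came from male Yorkshire pigs of 30 kg whose right kidney had 30 min without blood flow while warm, was flushed and was returned to the same animal, so there was no foreign donor. No Storage kidneys went back at once, SCS kidneys after 8 h of static cold storage (cold solution without flow), and NEVKP kidneys after 8 h of normothermic ex vivo kidney perfusion (flow near body temperature outside the body). Each group had 3 animals, the other kidney of every animal was taken out in the same operation, and tissue was sampled on day 3. There is no uninjured kidney in the series, so No Storage, which had the warm ischemia and the transplantation too, is the baseline of every difference. Values were log2 intensities made with RMA, 1 array per animal, with array medians of 5.705 to 5.797. Some tubule genes were high: UMOD, the main urinary protein of the thick ascending limb, had a mean log2 value of 11.52 and SLC5A2, the glucose transporter of the early proximal tubule, of 11.03. Not all tubule genes were, as given for SLC34A1 below.

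PROM1 lay lower in SCS than in NEVKP on every array, and No Storage spanned both. Its log2 value was 6.19, 4.55 and 6.25 in No Storage replicates 1, 2 and 3. It was 4.22, 5.47 and 5.05 in SCS replicates 1, 2 and 3. It was 6.17, 6.84 and 6.09 in NEVKP replicates 1, 2 and 3. No Storage replicate 2 fell inside the SCS range, while the other No Storage arrays fell inside the NEVKP range. The means were 5.66 ± 0.96 in No Storage, 4.91 ± 0.63 in SCS and 6.37 ± 0.41 in NEVKP (SD, n = 3 each). The No Storage SD was larger than that of 99.6% of all probe sets in that group, and the SCS SD larger than 97.7%. On each array PROM1 sat between the 29.5th and the 64.7th percentile of all probe sets, so it was neither among the dimmest nor among the bright ones.

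SOX9 was higher in every SCS kidney than in every No Storage kidney, and among NEVKP kidneys 1 stood at the SCS level. Its log2 value was 6.78, 7.07 and 6.88 in No Storage replicates 1, 2 and 3. It was 8.03, 8.47 and 7.63 in SCS and 7.02, 8.46 and 7.08 in NEVKP, in the same order. NEVKP replicates 1 and 3 thus lay at the No Storage level, NEVKP replicate 1 below No Storage replicate 2, and NEVKP replicate 2 just under the highest SCS array. The means were 6.91 ± 0.15, 8.04 ± 0.42 and 7.52 ± 0.82 in No Storage, SCS and NEVKP (SD, n = 3 each). The No Storage SD was near the middle of all probe sets (percentile 49.8), while the NEVKP SD was larger than that of 98.2% of them.

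SOX4 showed a smaller shift than SOX9, and both preserved groups lay above No Storage without overlap. Its log2 value was 7.26, 6.87 and 7.20 in No Storage replicates 1, 2 and 3. It was 7.70, 8.11 and 7.60 in SCS and 7.36, 7.70 and 7.58 in NEVKP, in the same order. SCS replicate 2 was the highest array for SOX4 as it was for SOX9. The means were 7.11 ± 0.21, 7.80 ± 0.27 and 7.55 ± 0.17 in No Storage, SCS and NEVKP (SD, n = 3 each), and the SCS and NEVKP arrays overlapped.

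**Figure D1:**
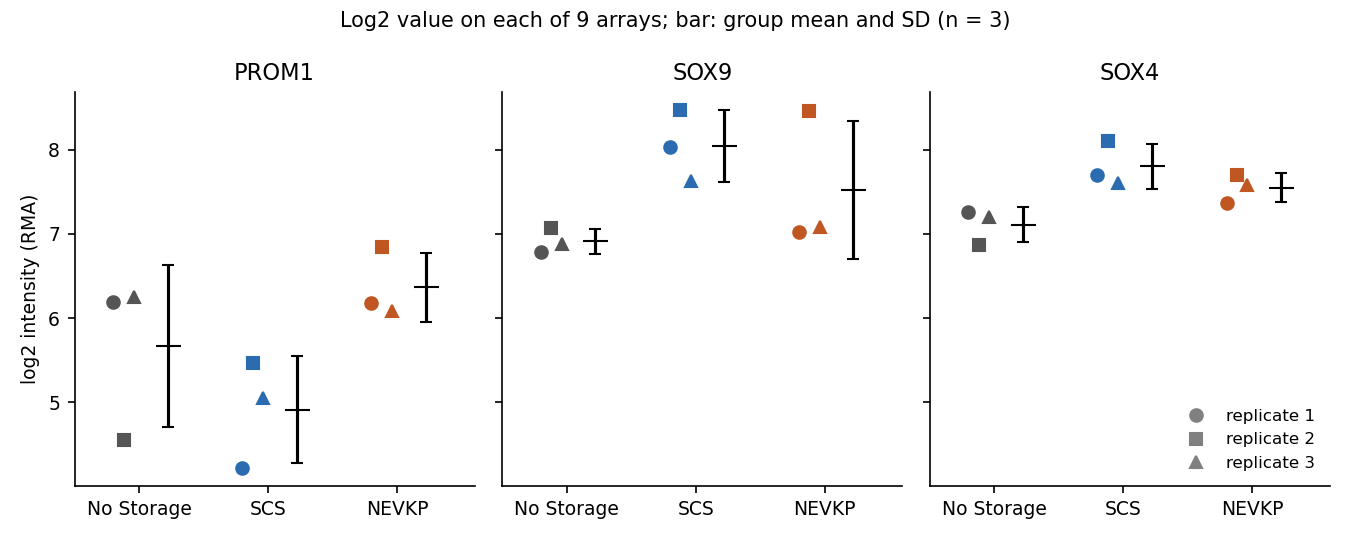
Log2 intensity (vertical axis) of PROM1, SOX9 and SOX4 on each array, by group (horizontal axis), with marker shape for the replicate number and bars for the group mean and SD (n = 3). PROM1 in SCS runs from 4.22 to 5.47, below all NEVKP arrays, and SOX9 in NEVKP holds 1 array at 8.46 beside 7.02 and 7.08.

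SCS was set against No Storage to see what cold storage added by day 3. SOX9 was 2.19-fold higher in SCS, a log2 difference of 1.13 (SE 0.353, 95% interval 0.349 to 1.92, limma adjusted p = 0.163), higher in 3 of 3 SCS animals. SOX4 was 1.62-fold higher, by 0.69 (SE 0.172, interval 0.311 to 1.07, limma adjusted p = 0.107), also in 3 of 3. PROM1 differed by -0.75 (SE 0.455, interval -1.76 to 0.263, limma adjusted p = 0.481). None of the 3 genes passed an adjusted p of 0.05 in limma, where 0.162% of all probe sets passed (0.068% higher and 0.0941% lower in SCS). At an unadjusted p under 0.05, 2 of 3 genes were past it, SOX9 (unadjusted p = 0.00915) and SOX4 (unadjusted p = 0.00233), both higher, against 15.5% of all probe sets (7.75% higher and 7.79% lower). All SCS arrays lay above all No Storage arrays for 11.3% of probe sets, SOX9 and SOX4 among them, and below for 11.6%. By size alone, 0.957% of probe sets had a larger difference than SOX9, 3.91% than PROM1 and 4.82% than SOX4.

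The PROM1 difference between SCS and No Storage rested on single arrays. It was -1.31 without No Storage replicate 2, -0.49 and -0.46 without No Storage replicates 1 and 3, and -0.41 without SCS replicate 1. For SOX9 the range over omissions of 1 array was 0.92 to 1.34 and for SOX4 0.54 to 0.79. SOX9 passed the threshold without NEVKP replicate 2 (limma adjusted p = 0.045), an array of neither compared group that enters only through the shared estimate of the spread. Over all alternatives tried, the adjusted p of SOX9 ran from 0.045 to 0.385.

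NEVKP was set against No Storage in the same way, for warm perfusion. SOX4 was 1.35-fold higher in NEVKP, by 0.44 (SE 0.172, interval 0.0542 to 0.818, unadjusted p = 0.0291, limma adjusted p = 0.511), in 3 of 3 animals. SOX9 differed by 0.61 (SE 0.353, interval -0.173 to 1.4, limma adjusted p = 0.642), and by 0.14 without NEVKP replicate 2. PROM1 differed by 0.70 (SE 0.455, interval -0.31 to 1.72, limma adjusted p = 0.673), by 0.15 without No Storage replicate 2 and by 0.47 without NEVKP replicate 2. None of the 3 genes passed, and the share of all probe sets that passed was 0%. At an unadjusted p under 0.05 it was 1 of 3 genes and 9.07% of probe sets (4.67% higher and 4.4% lower in NEVKP). All NEVKP arrays lay above all No Storage arrays for 7.94% of probe sets, SOX4 among them, and below for 8.57%. This comparison and the previous one share the No Storage arrays.

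The comparison of NEVKP with SCS sets the methods of preservation against each other. PROM1 was 2.74-fold higher in NEVKP, by 1.45 (SE 0.455, interval 0.44 to 2.47, unadjusted p = 0.0095, limma adjusted p = 0.599), in 3 of 3 animals. Of 19124 probe sets, 29 had a larger difference than PROM1 (0.152%), but 296 had a smaller p, since PROM1 also varied much within groups. SOX9 differed by -0.52 (SE 0.353, interval -1.31 to 0.263, limma adjusted p = 0.75) and SOX4 by -0.26 (SE 0.172, interval -0.639 to 0.126, limma adjusted p = 0.746). None of the 3 genes passed, and 0% of all probe sets did. At an unadjusted p under 0.05 it was 1 of 3 genes and 7.5% of probe sets (3.8% higher and 3.7% lower in NEVKP). All NEVKP arrays lay above all SCS arrays for 5.01% of probe sets, PROM1 among them, and below for 6.78%. PROM1 kept a difference of 1.11 to 1.73 without any single array. SOX9 reached -0.99 without NEVKP replicate 2 and was -0.27, -0.30 and -0.31 without NEVKP replicate 1, NEVKP replicate 3 and SCS replicate 2. SOX4 was -0.11 without SCS replicate 2.

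**Figure D2:**
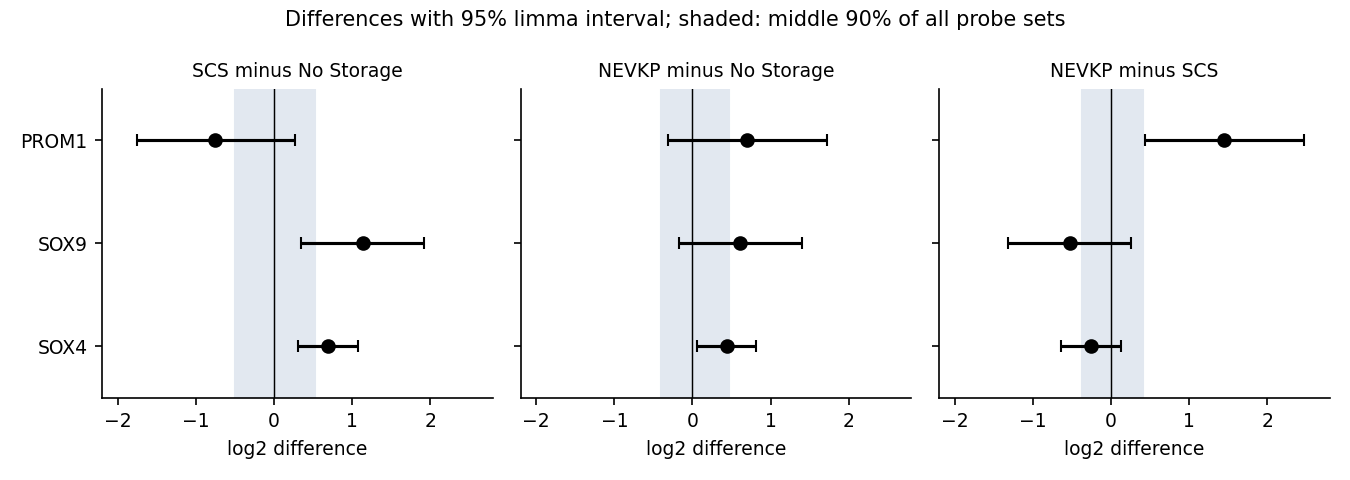
Log2 differences (horizontal axis) of PROM1, SOX9 and SOX4 in the 3 comparisons, with points for the estimate, bars for the 95% interval from limma, and shading for the middle 90% of all probe sets. The SCS minus No Storage intervals of SOX9 and SOX4, the NEVKP minus No Storage interval of SOX4 and the NEVKP minus SCS interval of PROM1 lie above 0, and none of the 9 differences passed the adjusted threshold.

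**Figure D3:**
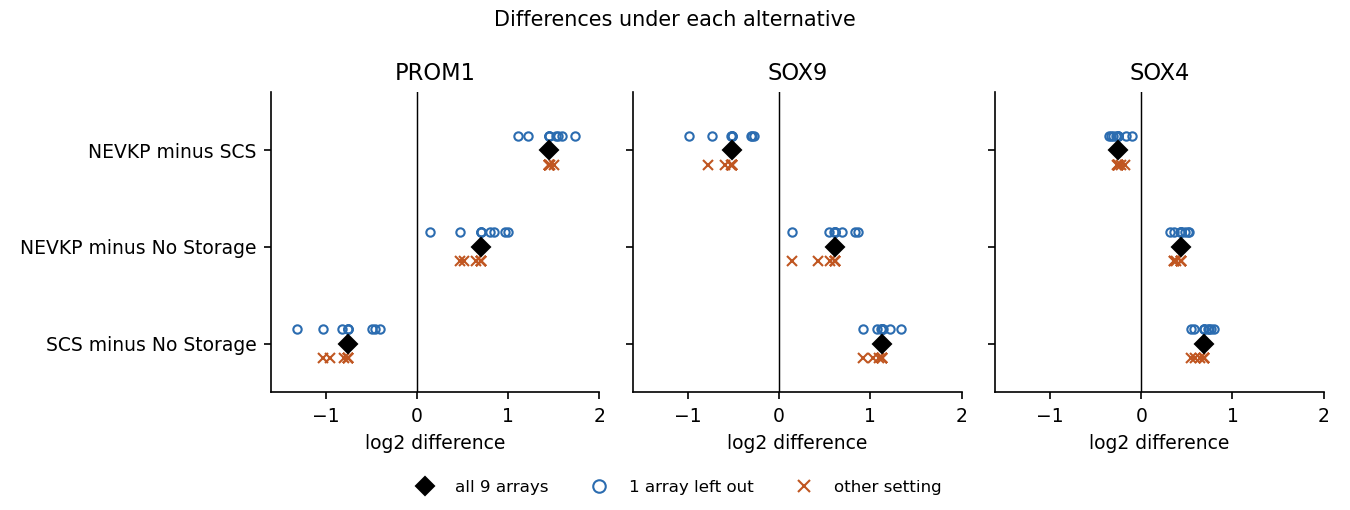
The same log2 differences (horizontal axis) with all 9 arrays (diamonds), with 1 array left out (circles) and under the other settings (crosses), 1 panel per gene. The PROM1 differences from No Storage spread widest, from -1.31 to -0.41 for SCS and from 0.15 to 1.00 for NEVKP, and no difference changed sign.

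Over all 9 arrays SOX9 and SOX4 rose and fell together, while no relation of PROM1 to either passed the test. Over the 9 arrays SOX9 and SOX4 had a Pearson r of 0.807 (exact permutation p = 0.00578, adjusted 0.0381) and a Spearman rho of 0.867 (exact permutation p = 0.00451, adjusted 0.0298). Without SCS replicate 2 and NEVKP replicate 2, the arrays farthest from the SOX9 median, r was 0.666, and with group means removed it was 0.534. PROM1 had an r of -0.124 with SOX9 (exact permutation p = 0.739, adjusted 0.879) and of 0.0488 with SOX4 (exact permutation p = 0.9, adjusted 0.958). The rho values were -0.3 and -0.2 (exact permutation p = 0.437 and 0.613, adjusted 0.6 and 0.75), and without No Storage replicate 2 and SCS replicate 1 the r values were -0.0921 and -0.36. With group means removed, the r of PROM1 with SOX4 was 0.762, above the 0.534 of SOX9 with SOX4. The order of these pairs within groups thus differed from that over all arrays. In all, 33 relations were computed after the values had been seen, 3 among these genes and 30 with the means of 10 marker lists. The p values were two-sided, took all arrays as exchangeable whatever their group, and were adjusted by the Benjamini-Hochberg method over the 33. They therefore do not separate differences between groups from differences between kidneys of a group.

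SOX9 ran opposite to the genes of the proximal tubule, the segment that takes back most filtered solutes. The mean log2 value of 13 measured proximal tubule genes was 10.54, 10.42 and 10.61 in No Storage replicates 1, 2 and 3. It was 9.77, 9.43 and 10.09 in SCS and 10.39, 9.46 and 10.23 in NEVKP, in the same order. SCS replicate 2 and NEVKP replicate 2, the lowest for these genes, were the highest for SOX9. The Pearson r of SOX9 with this mean was -0.987 (exact permutation p = 3.03e-05, adjusted 0.001) and rho was -0.967 (exact permutation p = 0.000165, adjusted 0.00546). It was -0.961 without SCS replicate 2 and NEVKP replicate 2 and -0.983 with group means removed. In bulk tissue, fewer proximal tubule cells and less of these transcripts per cell cannot be told apart.

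Of the 13 proximal tubule genes, 12 had a negative r with SOX9, with a median of -0.869, against 49.6% of all other named genes. The lowest was SLC5A2 (-0.957). The exception was SLC34A1, the phosphate transporter gene (0.317), whose probe set was low, at a mean log2 value of 4.87. SOX4 was also opposite to this mean, at r = -0.845 (exact permutation p = 0.00218, adjusted 0.024) and rho = -0.933 (exact permutation p = 0.00075, adjusted 0.0124). It was -0.911 without No Storage replicate 2 and SCS replicate 2, and -0.609 with group means removed. PROM1 had an r of 0.0748 with the proximal tubule mean (exact permutation p = 0.842, adjusted 0.927) and a rho of 0.25 (exact permutation p = 0.521, adjusted 0.661).

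Over all arrays SOX4, and SOX9 by rank, ran along with stromal genes. With the mean of 10 fibroblast and pericyte genes, which include the fibrillar collagens, SOX9 had an r of 0.804 (exact permutation p = 0.0125, adjusted 0.0557) and a rho of 0.833 (exact permutation p = 0.00827, adjusted 0.0444). SOX4 had an r of 0.816 with it (exact permutation p = 0.00545, adjusted 0.0381) and a rho of 0.817 (exact permutation p = 0.0108, adjusted 0.0444). Without the 2 arrays farthest from each gene's median these r values were 0.661 and 0.775, and with group means removed 0.686 and 0.311. With 4 genes listed for parietal epithelium, of which KRT8 and VCAM1 are also made by injured tubule cells, r was 0.885 for SOX9 (exact permutation p = 0.00168, adjusted 0.024) and 0.809 for SOX4 (exact permutation p = 0.00816, adjusted 0.0449). The rho values were 0.817 and 0.9 (exact permutation p = 0.0108 and 0.00203, adjusted 0.0444 and 0.0167), and r without the 2 farthest arrays was 0.83 and 0.867. With group means removed r was 0.875 for SOX9 and 0.471 for SOX4. PROM1 had an r of 0.0885 with the parietal mean (exact permutation p = 0.815, adjusted 0.927). SOX9 had an r of -0.364 with the loop of Henle and distal tubule mean over all arrays (exact permutation p = 0.33, adjusted 0.524, rho -0.45 with exact permutation p = 0.23, adjusted 0.393). That r was -0.968 without SCS replicate 2 and NEVKP replicate 2, the latter high for both, but 0.317 with group means removed, so its sign was not stable.

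PROM1 tracked, by rank, a set of genes from Henle's loop and the distal tubule, the segments that dilute the urine. Their mean log2 value over 8 measured genes was 8.99, 8.54 and 8.78 in No Storage replicates 1, 2 and 3. It was 7.82, 7.86 and 8.35 in SCS and 8.64, 9.28 and 8.71 in NEVKP, in the same order. The lowest array of No Storage for PROM1, replicate 2, was also its lowest for this mean, and NEVKP replicate 2 was the highest of all arrays for both. The rho of PROM1 with this mean was 0.9 (exact permutation p = 0.00203, adjusted 0.0167) and r was 0.784 (exact permutation p = 0.0135, adjusted 0.0557). It was 0.838 without No Storage replicate 2 and SCS replicate 1, the arrays farthest from the PROM1 median, and 0.6 with group means removed.

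Of these 8 genes, 7 had a positive r with PROM1, with a median of 0.689 against -0.00332 for all other named genes. KCNJ1, the potassium channel ROMK of the thick ascending limb, was the highest (0.843) and TRPM6, the magnesium channel of the distal convoluted tubule, the lowest (-0.48). UMOD moved between groups in the same order as PROM1, with -2.21 for SCS minus No Storage, 0.19 for NEVKP minus No Storage and 2.40 for NEVKP minus SCS (limma adjusted p = 0.0895, 0.951 and 0.439). With the mean of 6 proliferation genes the r of PROM1 was -0.643 (exact permutation p = 0.0646, adjusted 0.213) and rho was -0.683 (exact permutation p = 0.0503, adjusted 0.166). Without No Storage replicate 2 and SCS replicate 1 that r was -0.521, and with group means removed it was -0.631. Over all arrays each of the 6 genes had a negative r with PROM1, from -0.694 for FOXM1 to -0.404 for MCM2.

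**Figure D4:**
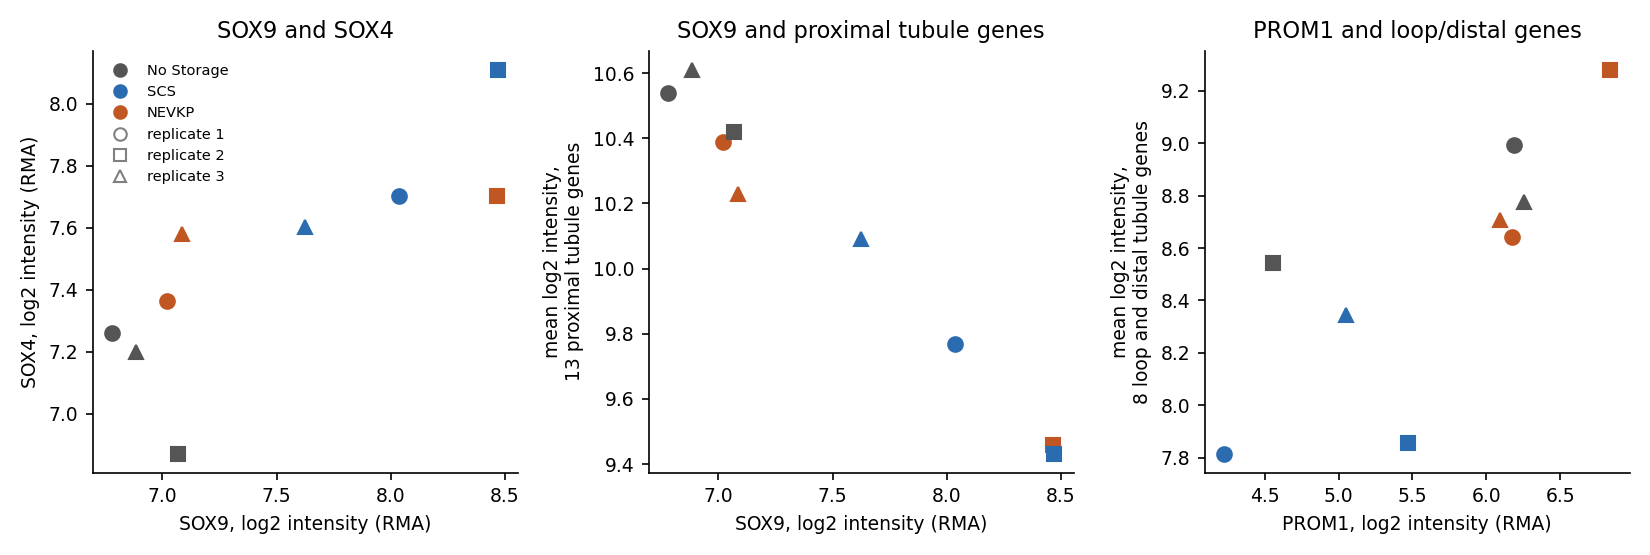
Log2 values of 9 arrays, coloured by group and shaped by replicate number: SOX4 against SOX9 (left), the mean of 13 proximal tubule genes against SOX9 (middle) and the mean of 8 genes of Henle's loop and the distal tubule against PROM1 (right). The middle panel falls along a line (r = -0.987), with SCS replicate 2 and NEVKP replicate 2 at its lower right end.

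Most other family members differed little between groups. PROM2, the second prominin, had a mean log2 value of 5.29 and differences of -0.03, 0.12 and 0.16 in SCS minus No Storage, NEVKP minus No Storage and NEVKP minus SCS. Of 12 further SOX genes measured, 0 passed the adjusted threshold in any comparison (limma). At an unadjusted p under 0.05, 2 of 12 were past it in SCS against No Storage, SOX11 and SOX6, a share near the 15.5% of all probe sets. SOX11, like SOX4 a SoxC factor, was 5.07 ± 0.17 in No Storage and 5.69 ± 0.38 in SCS (SD, n = 3), a difference of 0.62 (unadjusted p = 0.0168, limma adjusted p = 0.208). In NEVKP its difference from No Storage was 0.49 (unadjusted p = 0.0482, limma adjusted p = 0.546). SOX6, a SoxD factor, differed by -0.38 in SCS (unadjusted p = 0.0397, limma adjusted p = 0.295). SOX17, an endothelial factor, differed by 0.09 and 0.17 from No Storage in SCS and NEVKP. The smallest adjusted p among the remaining SOX genes was 0.511, for SOX5. Of the 5 other PAX genes measured, 2 were dim (mean log2 value under 3.92, the lowest 25%), and their differences ran from -0.24 to 0.20 over the 3 comparisons.

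Lists of related genes were read beside these members. Across the 7 pathway lists and the 10 marker lists, 0 genes passed the adjusted threshold in any comparison (limma), so each list is given by its count at an unadjusted p under 0.05 and its median. Over all 12362 named genes the median difference was 0.00018, -0.0070 and -0.0045 in the 3 comparisons. Among 11 measured surface and cytoskeletal markers of scattered tubular cells, 5 were higher and 2 lower in SCS than in No Storage at that level, with a median of 0.62. Over all probe sets 7.75% were higher and 7.79% lower at that level. KRT18 and KRT19, keratins of simple epithelium, differed by 1.09 (limma adjusted p = 0.0513) and 0.80 (0.0646), and CD44, a hyaluronan receptor, by 1.12 (0.0801). In NEVKP against No Storage 4 of 11 were higher, against 4.67% of all probe sets, with a median of 0.20, led by the adhesion molecule gene VCAM1 at 1.18 (limma adjusted p = 0.395). In NEVKP against SCS 0 of 11 were higher and 2 lower, against 3.8% and 3.7% of all probe sets, with a median of 0.16. These 2 were KRT18 at -0.89 and CD44 at -0.56 (limma adjusted p = 0.419 and 0.655). By sign alone, 7 of the 11 had a difference above 0, the direction of PROM1.

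Among 36 measured transcription factors of nephron development, 1 was higher and 2 lower in SCS than in No Storage at an unadjusted p under 0.05, against 7.75% and 7.79% of all probe sets, with a median of -0.01. EMX2, a homeobox factor of the ureteric epithelium, was 7.65 ± 0.065 in No Storage, 8.24 ± 0.304 in SCS and 7.73 ± 0.135 in NEVKP (SD, n = 3 each). Its differences were 0.59 for SCS minus No Storage and -0.51 for NEVKP minus SCS (limma adjusted p = 0.128 and 0.599). ESRRG, a nuclear receptor of energy metabolism, differed by -0.54 and MECOM by -0.52 in SCS. In NEVKP against No Storage 1 was higher and 3 lower, against 4.67% and 4.4% of all probe sets, with HNF4A, the proximal tubule identity factor, at -0.73 (limma adjusted p = 0.395) and MEIS1 at 0.51. In NEVKP against SCS 1 was higher and 3 lower, against 3.8% and 3.7%, with HOXB7 at -0.50 and OSR2 at -0.68.

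Among 21 measured nephron induction signals and receptors, 3 were higher (14.3%) and 2 lower (9.52%) in SCS than in No Storage, against 7.75% and 7.79% of all probe sets, with a median of -0.03. SPRY1, an inhibitor of receptor tyrosine kinase signalling, differed by 0.47, FGF1 by 0.54 and LGR4, a receptor for R-spondins, by -0.63. WNT4, the inducer of nephron epithelium, was 5.05 ± 0.17 in No Storage and 6.12 ± 1.14 in NEVKP (SD, n = 3), a difference of 1.07 (limma adjusted p = 0.538). FGFR2, a receptor for fibroblast growth factors, differed by 0.47 in NEVKP against No Storage and by 0.45 against SCS. FGF20, a ligand of nephron progenitors, differed by -0.30 and -0.46 but was dim, with group means of 2.46 to 2.92.

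Among 22 measured Notch pathway genes, 3 were higher and 1 lower in SCS than in No Storage, against 7.75% and 7.79% of all probe sets, with a median of 0.02. NOTCH2, the receptor that patterns the proximal nephron, differed by 0.52 (limma adjusted p = 0.236), and PSEN2, a subunit of the protease that releases the Notch intracellular domain, by -0.94 (0.0946) in SCS and -0.65 (0.444) in NEVKP. HEY2, a Notch target, was 5.10 ± 0.062 in SCS and 6.02 ± 0.65 in NEVKP (SD, n = 3), a difference of 0.92 (limma adjusted p = 0.564). Among 20 measured matrix and plasticity genes associated with SOX9 and SOX4, 4 were higher and 0 lower in SCS, against the same shares, with a median of 0.08. These were SPP1, which encodes osteopontin (0.61, limma adjusted p = 0.092), the semaphorin gene SEMA3C (1.35, 0.147), the cadherin gene CDH6 (0.65, 0.232) and SNAI2 (0.42, 0.244). SEMA3C differed by 1.32 in NEVKP against No Storage, and CDH6 by -0.76 in NEVKP against SCS.

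**Figure D5:**
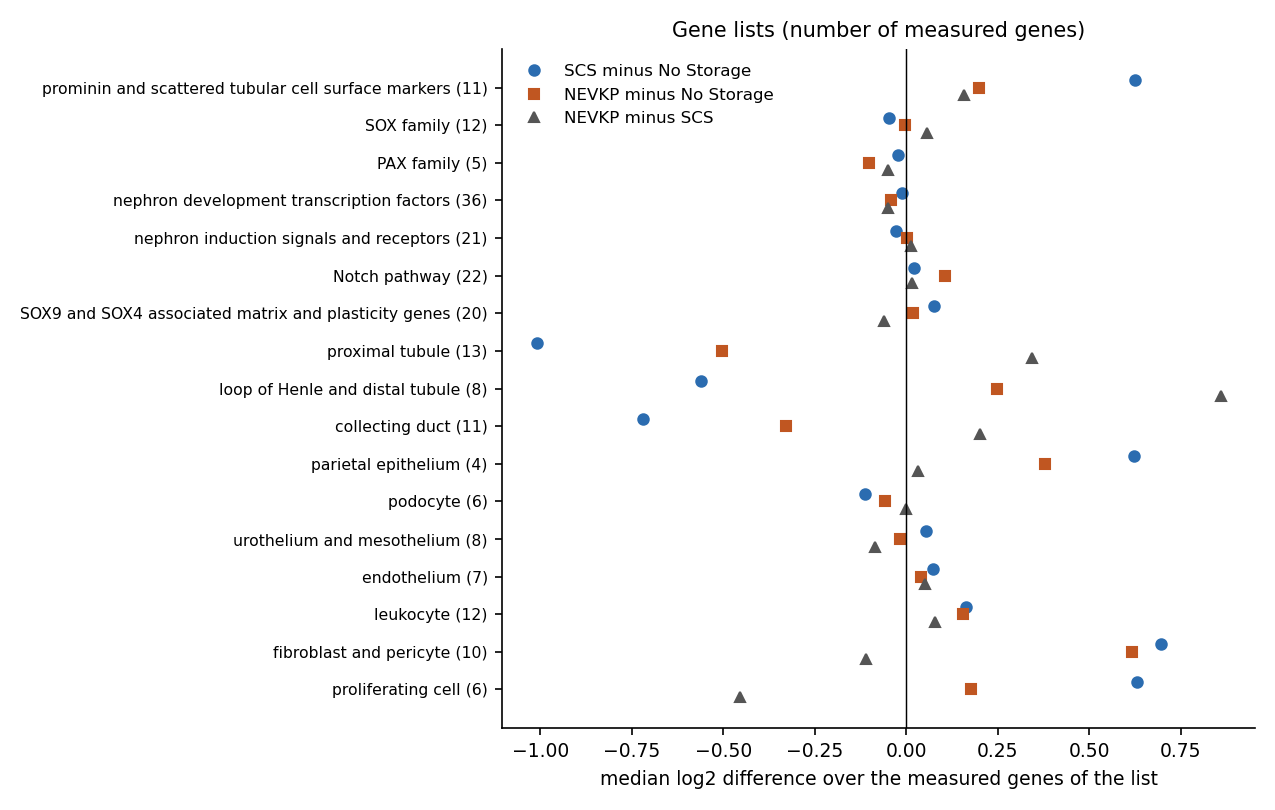
Median log2 difference (horizontal axis) over the measured genes of each list, with the number of measured genes in brackets and 1 symbol per comparison. The tubule lists lie lowest in SCS minus No Storage, with -1.01 for proximal tubule, -0.72 for collecting duct and -0.56 for loop of Henle and distal tubule, while the SOX, PAX, nephron development and Notch medians lie between -0.10 and 0.11.

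Markers of several cell types differed between the groups along with SOX9 and SOX4, and their part in those differences was not tested beyond the relations above. In SCS against No Storage 8 of 13 proximal tubule genes were lower and 1 higher at an unadjusted p under 0.05, and 8 of 10 fibroblast and pericyte genes were higher (median 0.70), against 7.75% of all probe sets higher and 7.79% lower. Of 11 collecting duct genes 6 were lower (median -0.72) and of 8 loop of Henle and distal genes 3 (median -0.56), with 0 higher in either list. Of 6 proliferation genes 4 were higher and 0 lower (median 0.63), and of 4 parietal genes 2 were higher and 0 lower (median 0.62). The higher parietal genes were KRT8 (0.90) and VCAM1 (0.976). They also belong to the scattered tubular cell markers and are among the 5 counted as higher there, so they are not a separate signal. Of the remaining parietal genes, AKAP12 differed by 0.35 (limma unadjusted p = 0.114). LIX1 differed by 0.02 and was dim, with group means of 2.94 in No Storage and 2.96 in SCS. In NEVKP against No Storage, where SOX4 also lay above, 0 of 8 loop of Henle and distal genes were lower or higher at that level (median 0.25). In that comparison 4 of 11 collecting duct genes (median -0.33) and 2 of 13 proximal tubule genes (median -0.50) were lower. The share of all probe sets lower was 4.4%, and 0 genes of these 2 lists were higher. There 6 of 10 fibroblast and pericyte genes were higher (median 0.62), against 4.67% of all probe sets, and 0 of 6 proliferation genes were (median 0.18). The mean of the proximal tubule genes ranged from 10.42 to 10.61 in No Storage, 9.43 to 10.09 in SCS and 9.46 to 10.39 in NEVKP. That of the fibroblast and pericyte genes ranged from 9.02 to 9.28, 9.75 to 10.05 and 9.59 to 9.99. The leukocyte mean ranged from 5.10 to 5.31, 5.30 to 5.43 and 5.39 to 5.47, with 2 of 12 genes dim. At an unadjusted p under 0.05, 1 of 12 leukocyte genes was higher in SCS than in No Storage (median 0.16). In NEVKP against No Storage 3 of 12 were higher (median 0.15), led by PTPRC at 0.655 (limma adjusted p = 0.388), against 4.67% of all probe sets. In both comparisons 0 were lower. For urothelium and mesothelium, which can be caught in a biopsy, the mean stayed between 4.24 and 4.57 on all arrays with 2 of 8 genes dim. Its r with PROM1, SOX9 and SOX4 was 0.33, 0.696 and 0.59 (exact permutation, adjusted p = 0.524, 0.155 and 0.255). These values were 0.751, 0.769 and 0.749 with group means removed, but 0.0366, 0.112 and 0.284 without the 2 arrays farthest from each gene's median. What this list has to do with the 3 genes was not tested further. The podocyte mean stayed between 7.10 and 7.51.

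The genes most like each member over the 9 arrays were taken from 11014 named genes as a description. RIBC1 (r = 0.967, rho = 0.85), YPEL5 (0.923, 0.917) and MITF, a transcription factor of pigment and bone cells (0.913, 0.917), were most like PROM1. With group means removed these values were 0.95, 0.865 and 0.868. Most opposite to PROM1 were EXOSC2, a subunit of the RNA exosome (r = -0.971, rho = -0.983), SPOUT1 (-0.939, -0.883) and MRPL52 (-0.936, -0.9). For SOX9 they were TMEM214 (r = 0.982, rho = 0.983), PPP1R18 (0.982, 0.996) and SMAD1, which carries BMP signals to the nucleus (0.978, 0.8). For SOX4 they were SERPINH1, the collagen chaperone HSP47 (r = 0.992, rho = 0.983), EDEM2 (0.976, 0.983) and ARID5B (0.974, 0.933). SERPINH1 differed by 0.84 in SCS and 0.58 in NEVKP from No Storage, and SMAD1 by 0.50 and 0.30.

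Of the 6 nearest measured neighbours of these genes, 0 passed the adjusted threshold in any comparison (limma), and 0 were past an unadjusted p of 0.05 in SCS against No Storage or NEVKP against SCS. Neighbours were taken by order in the RefSeq gene table for the pig assembly Sscrofa 11.1, as the nearest protein-coding gene on each side with a named probe set. KCNJ2, which lies next to SOX9 and encodes an inward rectifier potassium channel, differed by -0.12 in SCS and 0.25 in NEVKP from No Storage (limma adjusted p = 0.843 and 0.763). On the other side, past 1 further gene, SSTR2, a somatostatin receptor gene, differed by 0.23 and 0.85 (0.896 and 0.691). CDKAL1, next to SOX4, differed by 0.10 and 0.16, and PRL, on its other side, by 0.13 and -0.03. FGFBP1, next to PROM1, differed by -0.37 and -0.32 from No Storage and by 0.05 between NEVKP and SCS (limma adjusted p = 0.955). FAM184B, on the other side of PROM1 past 6 further genes, differed by -0.0071 and -0.14 from No Storage. PRL, FGFBP1 and FAM184B were dim, with mean log2 values of 2.72, 3.914 and 3.19, so little can be read from their small differences.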

How the data were processed

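The deposited table holds log2 intensities per probe set, 1 column per animal, made by the authors with RMA (background correction, scaling between arrays and summary over probes), per the submitters' processing notes, which also name limma 3.34.14. No source used here gives a probe set filter. Array precision is limited by the number of arrays. Symbols came from the platform annotation: 13323 probe sets had 1 symbol, 357 several and 5444 none. Group differences came from limma 3.58.1 (R 4.3.3; lmFit and eBayes with contrasts) on all 9 arrays and 19124 probe sets with the group as the only factor (6 residual and 4.12 prior degrees of freedom), with Benjamini-Hochberg adjustment over all probe sets and a threshold of 0.05. The limma fit was tested on simulated data with planted differences larger than those of PROM1, SOX9 and SOX4. The other steps were not tested in this way.

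The members and the gene lists were chosen with earlier results of these data known. Named genes were the members, up to 4 genes of each list per comparison by smallest p, the 3 genes most like each member by Pearson r, for PROM1 the 3 most opposite, and all measured SOX and PAX genes. Single marker genes named by their r with a member, the neighbours and the relations with list means were chosen after values were seen. Exact permutation tests used all 362880 orders of the arrays (Python 3.11.15, numpy 2.4.6).

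Alternatives were leaving out each array in turn, fitting only the groups under comparison, blocking on the replicate number, weighting arrays, dropping the dimmest 25%, centring arrays on their medians, and a robust prior with a trend. Omission of both arrays of lowest weight was chosen after seeing the data.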

Additional observations from a re-analysis of the deposited data

Results flagged for a closer look

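PROM1 was singled out because every SCS array lay below the No Storage mean and every NEVKP array above it. Relative to that mean the log2 values were -1.44, -0.19 and -0.62 in SCS replicates 1, 2 and 3. They were 0.51, 1.17 and 0.42 in NEVKP and 0.52, -1.11 and 0.59 in No Storage, in the same order. The difference between both effects is the NEVKP minus SCS difference of 1.45 for PROM1, which did not pass in limma (adjusted p = 0.599). The deviation of No Storage replicate 2 was larger than those of SCS replicates 2 and 3. The flag depends on that array, since NEVKP replicates 1 and 3 lay below No Storage replicates 1 and 3. Without No Storage replicate 2 the PROM1 difference between NEVKP and No Storage was 0.15. The share of all genes that meet this rule was not counted.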

How the results depend on the processing

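No log2 difference of PROM1, SOX9 or SOX4 changed sign under any of the 16 alternatives. The only one to cross the threshold was SOX9 in SCS against No Storage, without NEVKP replicate 2, so that the count of these genes past it ran from 0 to 1 over omissions of 1 array. Over all probe sets, the count for SCS against No Storage was 31. It was 83 with a trended and robust prior, 93 with array weights, 82 without the dimmest 25% and 49 with centred arrays. It was 0 without the pair given least weight (NEVKP replicate 2 with SCS replicate 2), and from 0 to 158 over omissions of 1 array. For NEVKP against SCS the count was 0, 1 with array weights, and 0 to 1 over omissions of 1 array. Without that pair SOX9 differed by 0.14 in NEVKP and 0.92 in SCS from No Storage. With a replicate block the count for SCS against No Storage was 27 and no call on PROM1, SOX9 or SOX4 changed at the adjusted threshold. The block lowered the SE of SOX9 from 0.353 to 0.243. It raised that of PROM1 from 0.455 to 0.5 and that of SOX4 from 0.172 to 0.188. For SOX9 the limma unadjusted p with the block was 0.00156 in SCS and 0.0356 in NEVKP against No Storage. Same-numbered arrays correlated in their deviations from group means at -0.139 to 0.131. Whether they share more than a number was not tested. The mean of several probe sets, and other probe sets of a gene, could not be tried because each gene had 1. The cause of these shifts was not tested. With 3 animals a group, differences of the size of the PROM1 spread were not resolved.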
